A study of Homo sapiens with 6 samples.

Results

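The comparison described here sets A172 cells, an established human glioblastoma line, transfected with an siRNA against ADAR1 (siADAR1, 2 libraries, replicates a and b) against the same line transfected with a control siRNA (siControl, 2 libraries, replicates a and b). These are 4 of the 6 RNA-seq libraries in the series. The other 2 received siRNAs against both ADAR1 and Staufen1; they entered the model only to help estimate the spread between replicates and take part in no contrast below. Members are the rows of the deposited count table, each a group of UCSC hg19 transcripts treated as a gene, that had enough reads to be tested: 14711 of 20514. All groups share the growth medium with 10% serum, and the labels' treatment text, identical for every library, also gives each culture an HA-tagged STAU1 plasmid on the day after the siRNA. A line grown in culture carries no stroma or immune cells of a tumour. The labels do not say whether replicates a and b were grown as separate cultures, and the p-values speak only to how far these particular libraries differ, possibly for technical reasons.

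ADAR1 converts adenosine to inosine in double-stranded RNA, much of it formed by inverted repeats in introns and untranslated regions. It has a long, interferon-inducible form found mostly in the cytoplasm and a shorter constitutive form found mostly in the nucleus, and its editing keeps cellular double-stranded RNA from being read as foreign by innate sensors. Staufen1 binds double-stranded stretches in mRNA and recruits the decay factor UPF1, and the title of the series links ADAR1 to the inhibition of this decay in stressed cells. The question put to the data is which transcripts changed in level when ADAR1 was targeted.

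The deposited rows carry transcript IDs and no gene names, and an annotation of hg19 UCSC IDs was not used here. The ADAR row itself, which would check the knockdown, the interferon and apoptosis genes, and the markers of glial cells were therefore not analysed here. Gene rows are described by their level, the size of their change and the number of transcripts they hold. The 2 largest rises and 2 largest falls are given by their first ID, and 6 rows by the name of the non-coding gene linked to them.

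The 4 libraries held 20291057 to 29508632 estimated reads. Of the rows left untested, 1022 had no read in any of the 4 libraries and 4781 had too few. The untested rows together made up 340 and 341 CPM in the siControl libraries and 448 and 446 in the siADAR1 libraries. CPM are reads scaled to a common depth, here of the library total. Against the TMM scaling used below, library totals move log2 fold changes of tested rows up by a median of 0.30. The difference between the groups therefore includes such an offset, and its size under TMM is not given.

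With siADAR1 the change was broad. A total of 9212 gene rows were called, 62.6% of those tested (quasi-likelihood test of edgeR, Benjamini-Hochberg adjustment, threshold 0.05), with 4847 higher (32.9%) and 4365 lower (29.7%). The typical change was small: the median size over all tested rows was 0.50 on the log2 scale, and 5% of rows moved by more than 1.87. Called rises were larger than called falls, with a median log2 fold change of 0.86 among rows called higher and -0.59 among rows called lower. The median over all tested rows was 0.04, a value that the TMM scaling used here holds near 0 by construction. Scaled to library totals it was 0.34.

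**Figure D1:**
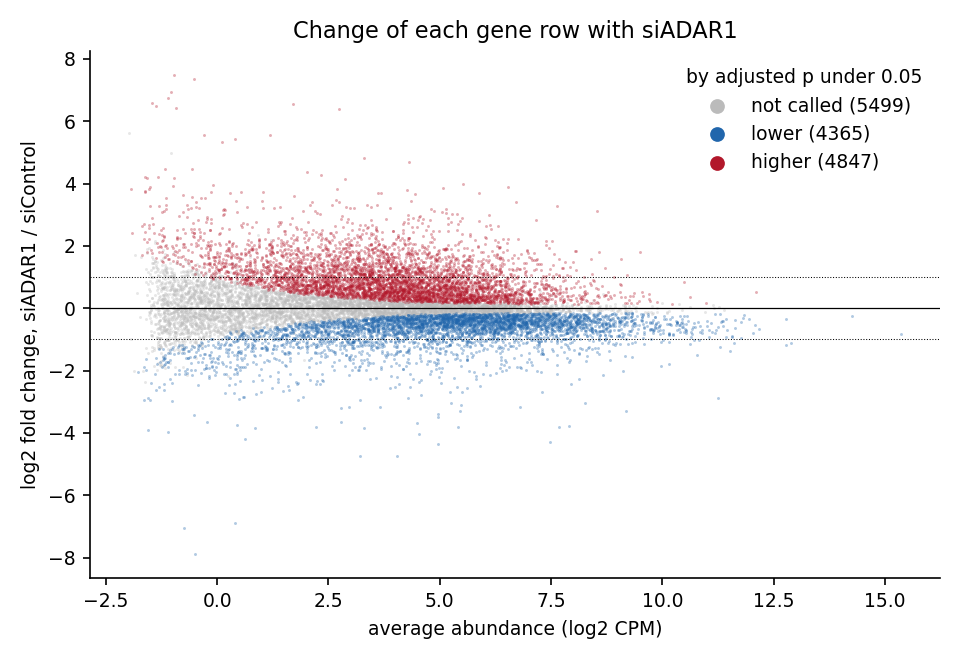
Each point is 1 of 14711 tested gene rows, with the average log2 CPM of the 6 libraries on the horizontal axis and the fitted log2 fold change of siADAR1 over siControl on the vertical axis; dotted lines mark a 2-fold change. Called rows (4847 higher in red, 4365 lower in blue) surround a band of 5499 rows not called, which widens towards low abundance where the error is larger.

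Among called rows, small changes leaned to falls and large changes to rises. Of the rows called lower, 2176 (49.9%) moved by less than 1.5-fold, against 1462 (30.2%) of the rows called higher. Between 2-fold and 4-fold there were 1552 rises and 749 falls, and between 4-fold and 8-fold 325 rises and 108 falls. Rises of at least 2-fold made up 13.4% of the rows tested (1978) and falls of that size 6.05% (890). At least 4-fold, 426 rows rose and 141 fell, and at least 8-fold 101 rose and 33 fell. Smaller changes could be called in abundant rows. The 5th percentile of called sizes was 0.68 log2 in the least abundant quartile and 0.20 in the most abundant. From the least to the most abundant quartile, rises and falls of at least 2-fold numbered 579 and 293, 695 and 216, 484 and 171, and 220 and 210. How far abundance set the lean was not tested.

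Most changes beyond 16-fold came from rows with few reads. Of 24 such rises, 2 had an average of at least 3 log2 CPM, and 17 had at most 3 reads in the siControl libraries together. Of 9 such falls, 5 had that abundance and 3 had at most 3 reads in the siADAR1 libraries together. Fitted fold changes against so few reads depend on the model's settings and are not used to rank rows here.

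**Figure D2:**
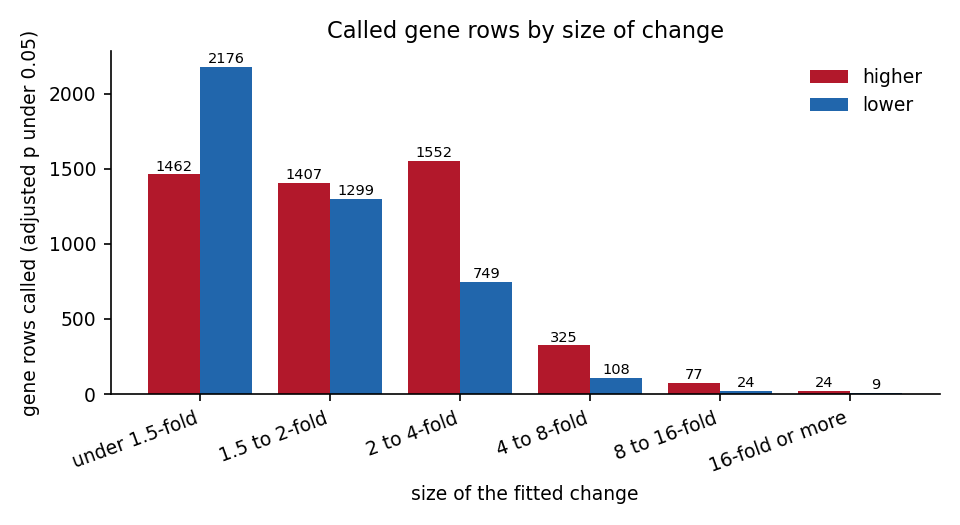
Bars count the gene rows called higher (red) and lower (blue) with siADAR1, by the size of the fitted fold change. Below 1.5-fold the falls are more numerous (2176 against 1462), and from 2-fold upwards the rises are (1552 against 749 in the class of 2 to 4-fold).

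The direction of the lean of small changes depends on how libraries are scaled. Among large changes the direction does not, but the size of the lean does. CPM values here are scaled with TMM factors, which assume that most genes do not change. Scaled to library totals instead, every log2 fold change moved up by a median of 0.30, and rises under 2-fold then outnumbered falls (4007 against 1951), where TMM gave 2869 rises and 3475 falls. Large rises outnumbered large falls under either scaling, with 721 against 87 at 4-fold and 147 against 26 at 8-fold under library totals. TMM gave 426 against 141 and 101 against 33. The split of all calls went from 4847 higher and 4365 lower to 7095 and 2406. The table gives relative levels, so total RNA per cell was not measured.

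The 10 largest rises were taken among called rows whose groups did not overlap and whose average reached 3 log2 CPM over the 6 libraries. Rows low in siControl could reach that average only through the siADAR1 and combined knockdown libraries. A low start and a clearly expressed end therefore follow in part from the choice, and the lack of overlap follows from it in full. The 10 rows started from a median of 2.95 and 3.12 CPM in the siControl libraries, and 1 of them lay below 1 CPM in both. That gene row, whose first ID is uc002gka.3 and which holds 4 transcripts, had 14 and 18 reads in the siControl libraries and 645 and 722 in the siADAR1 libraries. This corresponds to 0.778 and 0.807 CPM against 23.3 and 22.3 CPM, with a gap of less than 1 CPM between replicates of either group. The fitted difference was 4.83 on the log2 scale (SE 0.17, edgeR adjusted p = 5.71e-10).

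The row of uc002ndw.3, a single transcript, ranked next. It had 11 and 29 reads with siControl and 697 and 858 with siADAR1, or 0.611 and 1.30 CPM against 25.1 and 26.5 CPM. The siControl libraries differed from each other more than 2-fold at this depth, and both lay far below either siADAR1 library. The log2 fold change was 4.70 (SE 0.20; edgeR adjusted p = 3.28e-09). Over the 10 largest rises, the level ran from 0.611 to 9.72 CPM in siControl replicate a and from 19.0 to 157 CPM in siADAR1 replicate a. In replicate b the ranges were 0.807 to 12 CPM and 18.2 to 168 CPM. These 10 rows held between 1 and 16 transcripts, and 3 of them a single one.

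The 10 largest falls were listed under the same requirements of no overlap and at least 3 log2 CPM on average. Rows with little left in siADAR1 could reach that average only through the siControl and combined knockdown libraries. A clearly expressed start therefore follows in part from the choice, and the lack of overlap follows from it in full. The row of uc001kmo.3, with 3 transcripts, had 390 and 441 reads in the siControl libraries and 16 and 30 in the siADAR1 libraries, or 21.7 and 19.8 CPM against 0.577 and 0.927 CPM. The groups stood far apart, and the relative gap between replicates was wider in siADAR1, where few reads were left. The log2 fold change was -4.75 (SE 0.18; edgeR adjusted p = 1.31e-09).

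The row of uc003okx.2, with 5 transcripts, went from 682 and 755 reads to 35 and 45, or from 37.9 and 33.9 CPM to 1.26 and 1.39 CPM. The log2 fold change was -4.75 (SE 0.13, edgeR adjusted p = 1.24e-10). Across the 10 largest falls, siControl levels ran from 21.7 to 512 CPM in replicate a and from 19.8 to 465 CPM in replicate b. The siADAR1 levels ran from 0.577 to 33.0 CPM and from 0.927 to 34.2 CPM. Each of these rows held 3 to 8 transcripts and none a single one. In replicate a, the median level was 72.2 CPM with siControl for the falls and 39.4 CPM with siADAR1 for the rises, levels set in part by the choice.

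**Figure D3:**
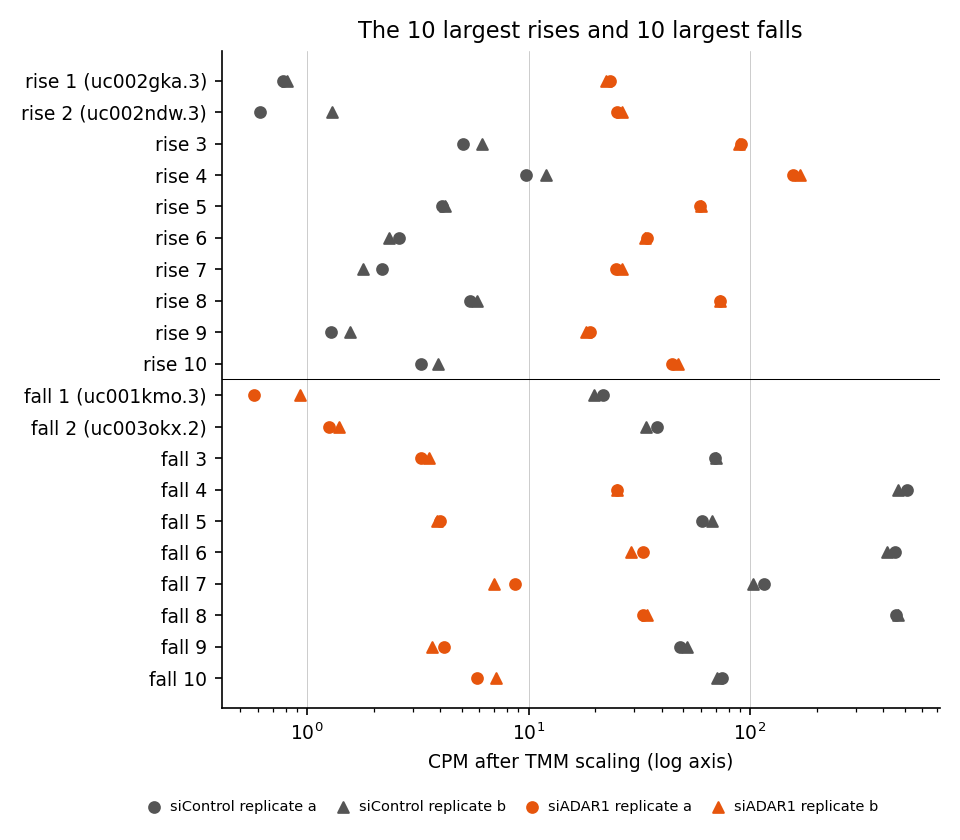
Each line is 1 gene row and each symbol its CPM in 1 library on a log axis, for the 10 largest rises (top) and 10 largest falls (bottom) among called rows with an average of at least 3 log2 CPM. The gap between replicates is widest for uc002ndw.3 in siControl (0.611 and 1.30 CPM), and siControl (grey) and siADAR1 (orange) do not overlap, a condition of being listed.

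The most abundant rows of a library held a smaller share of its reads with siADAR1. The rows needed to hold 50% of all reads numbered 374 and 392 in the siControl libraries and 596 in each siADAR1 library, and those needed for 90% numbered 3869 and 3937 against 4821 in each. The 84 rows that together gave up 50% of the lost reads took 23.1% and 22.1% of siControl reads and 14.9% and 14.8% of siADAR1 reads. Each of the 84 was called lower, 34 of them by at least 2-fold, and each stood at 389 CPM or more of the siControl totals. They were picked for the size of their loss on these libraries, so their direction, their high level and a large loss follow from the choice. The gains were spread wider, with 673 rows taking up 50% of the gained reads. The most abundant row of the table, the same one in the 4 libraries, took 5.43% and 4.92% of the reads in siControl and 3.6% and 3.59% in siADAR1, with a log2 fold change of -0.83 (SE 0.056; edgeR adjusted p = 1.19e-07). These shares are of each library's total and carry no TMM factor. With 2 libraries against 2, an exact permutation test could not pass the threshold, and no p is given for them.

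**Figure D4:**
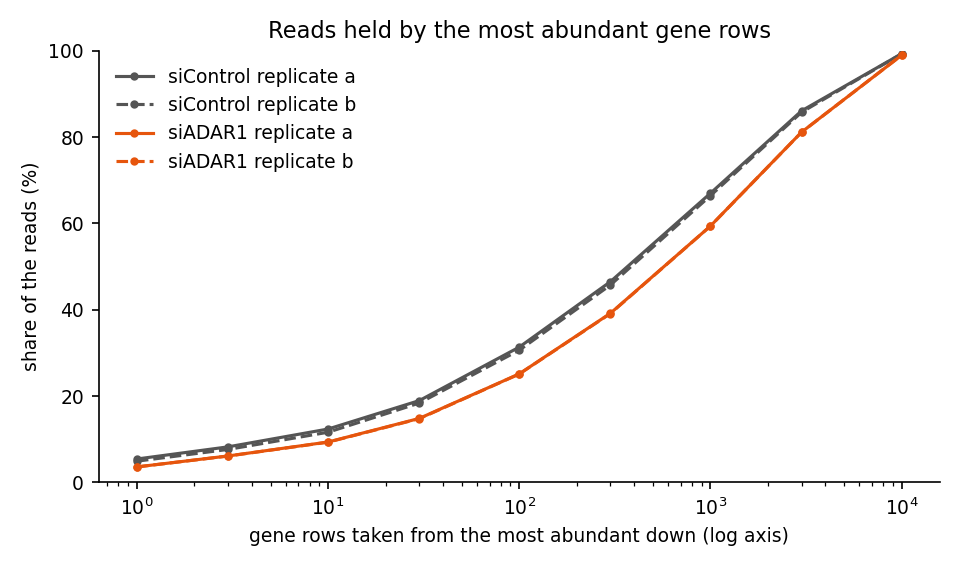
Lines give the share of a library's reads held by its most abundant gene rows, from the top row to the top 10000 (log axis). The siADAR1 curves (orange, the replicates lie on each other) run below the siControl curves (grey), with 25.1% against 31.3% and 30.6% of the reads in the top 100 rows.

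As a group, the 4847 rows called higher took 12% ± 0.35 of the reads in siControl and 23.8% ± 0.12 in siADAR1 (SD, n = 2 each). The 4365 rows called lower took 73.6% ± 0.90 and 58.6% ± 0.27 (SD, n = 2 each). The 5499 rows not called took 14.4% ± 0.55 and 17.6% ± 0.15 (SD, n = 2 each). The rows were called on these same libraries, so the directions are fixed by the choice. Calls were made under TMM and these shares are of library totals, which move log2 fold changes up by a median of 0.30. The sizes therefore include this offset. Rows called lower held most of the reads in either group, although their changes were the smaller ones gene by gene.

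The split between rises and falls differed with abundance, and in the most abundant quartile its order depended on the scaling. In the most abundant quartile (average log2 CPM of 5.55 or more), 1956 rows were lower and 956 higher under TMM, against 1124 lower and 1630 higher under library totals. In the second quartile, counted from the least abundant (1.72 to 3.84 log2 CPM), 818 were lower and 1577 higher under TMM, against 448 and 2122 under library totals. Median log2 fold changes under TMM from the least to the most abundant quartile were 0.14, 0.23, 0.09 and -0.21. Measured in each library against the siControl mean, the most abundant quartile stood at -0.21 in both siADAR1 libraries and at 0.02 and -0.02 in the siControl libraries, and the second quartile at 0.23 and 0.24 against -0.01 and 0.01.

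The difference between these quartiles changed little with the scaling. Another scaling moves every log2 fold change by nearly the same amount, so this follows from the construction and is no test. The most abundant quartile lay below the second by 0.44 on the log2 scale under TMM (a difference of -0.44) and by a difference of -0.43 under library totals, although the median of the most abundant quartile itself turned from -0.21 to 0.09. When abundance was taken from 1 siControl library and the change from the other, so that the same reads did not set both, the difference was -0.54 or -0.58. With abundance taken from the combined knockdown libraries it was -0.41. Both siControl libraries carry the level of the same group, so abundance from 1 of them is not independent of a change from the other. Over 10 classes, the median log2 fold change peaked at 0.27 in the third class from the bottom and was lowest in the top class, at -0.34 under TMM and -0.05 under library totals.

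**Figure D5:**
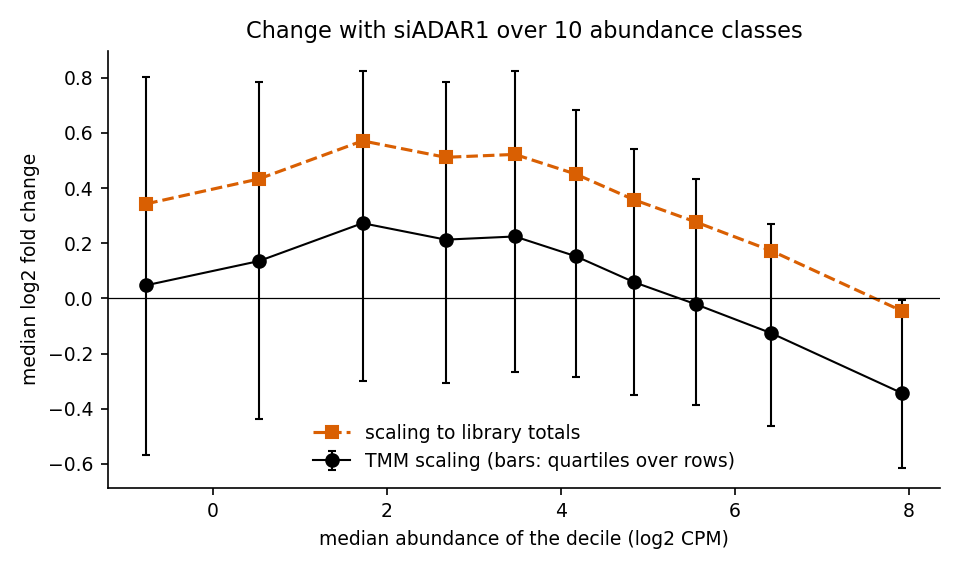
Points are the median log2 fold change of siADAR1 over siControl in 10 equal classes of abundance, under TMM scaling (black, bars from the lower to the upper quartile of the rows) and under library totals (orange). Both lines fall from the third class to the top class, from 0.27 to -0.34 and from 0.57 to -0.05.

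Depth set how small a change could be called. The median standard error of the log2 fold change fell from 0.38 in the least abundant quartile, where a row had a median of 24 reads per library, to 0.065 in the most abundant one, where it had 2591. The share of rows called rose over the same range from 32.7% to 79.2%. Rows called in the least abundant quartile had a median change of 1.35 in size, against 0.51 in the most abundant quartile, where smaller changes could pass. Changes of at least 2-fold were nonetheless called more often among rarer rows, at 23.7%, 24.8%, 17.8% and 11.7% from the least to the most abundant quartile. The decline was steeper for rises, which were 15.7%, 18.9%, 13.2% and 5.98% of the rows, than for falls, which were 7.97%, 5.87%, 4.65% and 5.71%.

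Genes also crossed fixed levels of expression, mostly upwards at the low end and downwards at the high end. Below 10 CPM in both siControl libraries and at or above it in both siADAR1 libraries were 745 rows, and 302 went the other way. At 1 CPM, 316 rows crossed upwards and 158 downwards. At 1000 CPM, 1 row crossed upwards and 45 downwards. The order was the same under library totals at these levels, with 1093 against 177, 456 against 108, and 4 against 23. At 100 CPM the order turned with the scaling, from 198 upwards and 332 downwards under TMM to 372 and 139 under library totals.

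Few genes were switched fully on or off. Rows without any read in siControl and with at least 10 reads in each siADAR1 library numbered 6, and rows without a read in siADAR1 and at least 10 in each siControl library numbered 2. Asking for at least 1 read in each library of the other group gave 399 rows and 101 rows. The siADAR1 libraries were deeper, and after every library was thinned at random to 20291057 reads the counts were 337 and 130, and 2 and 3 at 10 reads. At 5 reads there were 36 and 2 rows before thinning and 19 and 3 after. The excess of rows seen only with siADAR1 was therefore kept at 1 and 5 reads. At 10 reads, where few rows remained, it was not. The random thinning was done only once. A count of 0 allows up to 3 reads, so these rows are not shown to be silent.

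Replicates of a group were close to each other and closer with siADAR1, with only 2 libraries in each group. The siADAR1 libraries were also deeper, at 25145835 and 29508632 reads against 20291057 and 24739438. The part of depth in the narrower gap was not tested. The median gap between replicates over all tested rows, in log2(CPM + 0.5), was 0.14 in siControl and 0.088 in siADAR1, and in 63.7% of rows the siControl gap was the wider. In the most abundant quartile the gaps were 0.089 and 0.046, and siControl had the wider one in 69.3% of rows. The median difference between the group means was 0.44, and it exceeded the wider of both gaps in 72.5% of all tested rows. Among rows not called it did so in 30.6%.

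The groups did not overlap in 6220 rows with siADAR1 higher (42.3%) and 5599 with siADAR1 lower (38.1%). Of the called rows, 9204 were among these and 8 were not. Another 2615 rows were free of overlap and still not called, their difference being too small for the spread that the model allows them. With 2 libraries in each group, such separation is common even without a difference, so freedom from overlap alone does not show a change. Setting each siADAR1 library against a different siControl library gave a pair of estimates with no library in common. By matching letters these correlated across rows with a Pearson r of 0.90 and by crossed letters of 0.89 (n = 14711 rows, which are not independent and share each library's depth). They had the same sign in 86.0% and 85.4% of rows. A change of at least 2-fold appeared in both estimates with the same sign in 1790 rows by matching letters, and with opposite signs in 1.

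Rows that hold 1 transcript were compared with rows that hold 5 to 8. Rows with 1 transcript passed the read filter in 52.6% of cases and rows with 5 to 8 in 86.1%, since they were less abundant (median log2 CPM among tested rows of 2.56 against 4.37). The share called higher was 29.6% and 35%, and the share called lower 26.7% and 30.2%. Falls of at least 2-fold made up 7.46% of single-transcript rows and 4.90% of rows with 5 to 8.

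Within abundance quartiles the order of the shares called lower was the opposite one, with single-transcript rows above rows of 5 to 8 transcripts in all 4 quartiles. In the most abundant quartile, 25.1% of single-transcript rows rose and 53.3% fell, against 29.5% and 50.1% of rows with 5 to 8 transcripts. In the second quartile, 42.6% of single-transcript rows rose and 26.7% fell, against 41.5% and 17.6%, a wider gap in falls than over all rows. In the least abundant quartile 12.7% and 10.9% fell, and in the third 32.7% and 31.5%. Falls of at least 2-fold made up 9.86% and 6.05% in the least abundant quartile and 6.63% and 4.01% in the second, against 5.09% and 5.88% in the most abundant. Other classes did not all keep this order. In the most abundant quartile 55.9% of rows with 2 transcripts and 54.8% with 3 to 4 fell. In the third quartile 33.3% with 2 fell, and in the least abundant 15.6% with 9 or more. In the remaining comparisons single-transcript rows had the larger share called lower. Falls of at least 2-fold reached 13.5% of rows with 9 or more in the least abundant quartile. No test of these differences was made. RSEM divides reads among transcripts and near-identical genes by a model, which single-transcript rows need less.

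Only 6 rows could be tied to a gene symbol, through UCSC IDs that RefSeq lists as synonyms of long non-coding RNA genes, with the version number for ACTA2-AS1 and without it for the other 5. The links were not checked by position. None of these rows passed the test. SLC9A3-AS1, transcribed opposite a sodium-proton exchanger gene, had 42 and 61 reads with siControl and 56 and 39 with siADAR1, or 2.33 and 2.74 CPM against 2.02 and 1.2 CPM. Both siADAR1 values lay below both siControl values. Its log2 fold change was -0.67 (SE 0.28; edgeR adjusted p = 0.0518). It passed the threshold in 5 of 12 alternative fits. Leaving out siControl replicate a gave -0.79 (edgeR adjusted p = 0.0493), and leaving out siADAR1 replicate a gave -1.08 (edgeR adjusted p = 0.0147). Without siControl replicate b it was -0.56 (edgeR adjusted p = 0.197), and without siADAR1 replicate b -0.33 (edgeR adjusted p = 0.362).

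IL12B-AS1 is named for its place opposite the gene of an interleukin-12 subunit. The row linked to it holds 2 transcripts and matched through an ID other than its first. Whether this row holds IL12B-AS1 was not established, and the values below are those of the row. It had 225 and 306 reads with siControl and 445 and 467 with siADAR1, or 12.5 and 13.7 CPM against 16 and 14.4 CPM. The log2 fold change was 0.21 (SE 0.11; edgeR adjusted p = 0.115). It passed in 1 of 13 alternatives, under library totals, at 0.51 (edgeR adjusted p = 0.00223). It was lowest without siADAR1 replicate a, at 0.13 (edgeR adjusted p = 0.453), and without siControl replicate a, at 0.14 (edgeR adjusted p = 0.351).

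LINC01426 had 18 and 10 reads against 27 and 35, or 1.0 and 0.449 CPM against 0.973 and 1.08 CPM. Its groups overlapped, and the log2 fold change was 0.54 (SE 0.42; edgeR adjusted p = 0.277). The rows linked to ACTA2-AS1, MIR7-3HG and ZNF350-AS1 had at most 4 reads in any library and were not tested. The strand setting of the counting is not given in the sources used here, so reads of an antisense gene and of its partner cannot be told apart.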

How the data were processed

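Total RNA of A172 cells was taken with a miRNeasy kit and made into libraries with the Lexogen SENSE mRNA kit V2, per the labels' protocols. The authors deposited 1 table of estimated counts (RSEM expected counts), all of them whole numbers, with 1 row per group of UCSC hg19 transcripts per the file headers. RSEM 1.2.3, edgeR and the build hg19 are named in the submitters' processing notes without a role. How reads were aligned, stranded and rounded is not given in the sources used here.

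Each of the 6 count columns was assigned to 1 library through the sample's description. Rows were kept by edgeR's filterByExpr (10 reads, a total of 15) and scaled with TMM factors (0.887 and 0.902 for siControl, 1.10 for both siADAR1 libraries). The 6 libraries entered 1 model with 3 group means (3 residual degrees of freedom). The siADAR1 minus siControl contrast was tested across the kept rows by the quasi-likelihood F test of edgeR, two-sided, with Benjamini-Hochberg adjustment and a threshold of 0.05. The standard error came from the F statistic. The fits were tested on simulated data. Depth speaks for counting error only, since PCR copies were not told apart by molecular identifiers. Alternatives are given in the closing section.

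Rows printed by ID are the 2 largest rises and 2 largest falls among called rows whose groups did not overlap and whose average log2 CPM (prior count 2) reached 3. Gene lists, the knockdown check and cell type markers were not run, since no table linking the IDs to symbols was used here, apart from RefSeq synonyms (assembly GRCh38.p14, used for names only). No sequence is printed for the same reason. The comparison, its rules and lists were chosen with earlier results of these data known. R 4.3.3, edgeR 4.0.16, limma 3.58.1, DESeq2 1.42.0 and Python 3.11.15 were used.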

Additional observations from a re-analysis of the deposited data

How the results depend on the processing

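Of 52 alternative counts of called rows, 45 lay within 1.5 times the reported one. Under library totals 2406 rows fell, 3088 rose at least 2-fold and 455 fell at least 2-fold, and 22 rows were called in the direction opposite to the TMM call. When only rows reaching an average log2 CPM of 3 were kept, 1102 rose and 422 fell at least 2-fold, fewer rows being tested. Against a 1.5-fold change (edgeR glmTreat), 2296 rose and 1307 fell, that test asking for more. In 10 alternative fits other than library totals, which leave out the glmTreat fit and the stricter filter, 3660 of the rows called higher (75.5%) and 3308 of those called lower (75.8%) kept their call in each fit that tested them, and with library totals added 3660 and 2333 did.

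Medians of the abundance quartiles, from least to most abundant, were 0.10, 0.19, 0.054 and -0.25 with DESeq2 size factors and 0.11, 0.19, 0.051 and -0.24 with DESeq2. They were 0.43, 0.53, 0.39 and 0.095 under library totals, the last with a turned sign, as every value shifts up. They were 0.057, 0.17, 0.19 and -0.14 without a filter and 0.25, 0.15, 0.02 and -0.24 with the stricter filter, where the quartiles hold other rows. With abundance from siControl replicate a alone they were 0.21, 0.26, 0.043 and -0.28, and from replicate b alone 0.22, 0.29, 0.048 and -0.29. The least abundant quartile stood at 0.15 with limma-voom and 0.15 with only the 4 libraries compared, and the second quartile at 0.21 with abundance from the combined knockdown. The most abundant quartile minus the second was -0.31 without a filter, -0.38 with the stricter filter, -0.54 and -0.58 with abundance from siControl replicate a and b, and -0.41 from the combined knockdown. These choices of the abundance measure were made after seeing the data. The causes of these moves were not tested beyond what the construction of an alternative shows.

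Dropping 1 of the 4 libraries at a time leaves a group with 1 sample, whose variation is then assumed to equal that of the other groups. Across these fits, 4067 to 4699 rows rose and 3666 to 4307 fell, with 1861 to 2105 rising and 846 to 912 falling at least 2-fold. The least abundant quartile then stood at 0.14 to 0.16, the second at 0.22 to 0.26 and the most abundant minus the second at -0.48 to -0.42. With the replicate block, 4858 rows rose and 4378 fell. Same-letter deviations correlated across rows by 0.060, 0.015 and 0.012, so libraries sharing a letter were treated as unpaired. The 4 rows printed by ID passed in all 13 alternatives. The row linked to SLC9A3-AS1 passed in 5 of 12 alternatives. The row linked to IL12B-AS1, a link not established, passed in 1 of 13. The row linked to LINC01426 passed in 0 of 12, where its log2 fold change ran from 0.03 to 1.18.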
